A study of Homo sapiens with 6 samples.

Results

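A set of 5 zinc finger genes of chromosome 19p13.2 is described here across 6 libraries of ES2 cells, a human ovarian cancer cell line. They are ZNF763, ZNF433, ZNF625, ZNF442 and ZNF490, chosen by gene symbol, and they make up 5 of the 771 named genes and of the 1113 entries that each library's table holds. Of the libraries, 3 came from ES2 cells given an antisense oligonucleotide (ASO) against the long non-coding RNA RUNX1-IT1, titled ASO-IT1 and labelled as knockdown, and 3 from ES2 cells given a control ASO, titled ASO-C. An ASO is a synthetic oligomer that base-pairs with a chosen RNA and can cause that RNA to be cut. Cells of both groups were kept in the same medium with serum, and the labels give neither the dose of the ASO nor the time of harvest. All libraries came from the same cell line, and the labels do not say whether replicates 1 to 3 of a group came from separate cultures, so the p-values measure only the spread between these libraries, which may be technical.

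Zinc finger proteins of the C2H2 type bind DNA through a row of small domains, each folded around a zinc ion. Many of those encoded on chromosome 19 also carry a KRAB domain, which recruits the corepressor TRIM28 and leads to silencing of the bound DNA, often of a transposable element. Genes of this family arose by repeated tandem duplication and therefore sit side by side in clusters whose members resemble each other. The DNA targets of many of them are not well characterised.

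The tables give CPM, read counts scaled to library size, and low values in each library lay on even steps, each worth the CPM of 1 read. By these steps the libraries held 17100000 to 18700000 reads under the RUNX1-IT1 ASO and 17300000 to 21200000 under the control ASO. The entries of the tables add up to 0.363 to 0.389% of the CPM scale in RUNX1-IT1 ASO libraries and 1.02 to 1.11% in control ASO libraries, so each table holds a small part of its library. Of the 771 named genes, 489 averaged 1 CPM or more across both groups together and were tested, among them all 5 zinc finger genes. ZNF442 and ZNF763 averaged less than that under the RUNX1-IT1 ASO, at 0.512 and 0.873 CPM. They entered the tests only through their control ASO means of 1.62 and 2.42 CPM. Nearly all of the tested genes were lower under the RUNX1-IT1 ASO. Among the 269 other tested genes with a control mean within the range of the 5, the smallest fold was 2.01. The entries look chosen for how the groups differ, so a fall of the 5 genes is not independent evidence of a change. RUNX1-IT1 and RUNX1 are not in the tables used here, so the labels were not checked against the target. Of the markers looked up for the cell type, 1 of 8 ovarian and epithelial genes was listed (PAX8), 1 of 4 immune genes (ITGAM) and none of 4 fibroblast or 3 endothelial genes.

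On GRCh38, in the GENCODE release 29 annotation, the 5 genes lie within 675 kb of chromosome 19. ZNF763 (ENSG00000197054), at chr19:11965037-11980381, lies on the plus strand. The other 4 lie on the minus strand, with ZNF433 (ENSG00000197647) at chr19:12014732-12035741, ZNF625 (ENSG00000257591) at chr19:12142090-12156729, ZNF442 (ENSG00000198342) at chr19:12345949-12365905 and ZNF490 (ENSG00000188033) at chr19:12577961-12640098. Between the outermost of them the annotation holds 16 protein-coding zinc finger genes, the 5 included and the readthrough gene ZNF625-ZNF20 left out. The other 11, such as ZNF136, ZNF44 and ZNF443, are not in the tables used here and were not analysed here. ZNF763 and ZNF433 lie next to each other, with no other zinc finger gene annotated between them, and other genes of the family separate the rest.

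**Figure D1:**
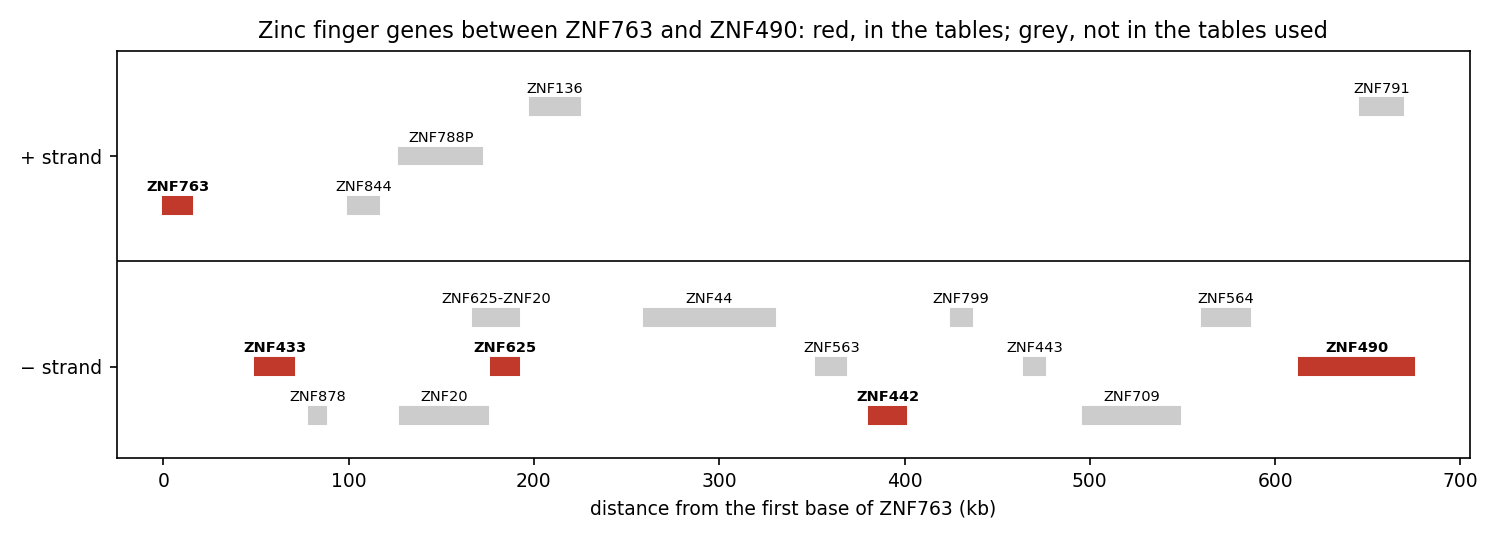
Zinc finger genes between ZNF763 and ZNF490, drawn to scale along the distance in kb from the first base of ZNF763, with genes of the plus strand above the line and of the minus strand below it; height within a strand only separates labels. The 5 genes described here (red) are spread over 675 kb among genes of the family that are not in the tables used (grey).

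Of the 5 genes, 4 had a promoter sequence in RefSeq (GRCh38.p14), running from 250 bases before to 50 bases after the annotated start. They are printed 5′ to 3′ on the minus strand, at chr19:12035630-12035929 for ZNF433, chr19:12156685-12156984 for ZNF625, chr19:12365634-12365933 for ZNF442 and chr19:12610764-12611063 for ZNF490. They are shown because parts of them resemble each other. Capitals mark CCAAT, the core of a common promoter element bound by NF-Y, or its reverse complement ATTGG, and TGTGGT, the core bound by RUNX proteins.
ZNF433: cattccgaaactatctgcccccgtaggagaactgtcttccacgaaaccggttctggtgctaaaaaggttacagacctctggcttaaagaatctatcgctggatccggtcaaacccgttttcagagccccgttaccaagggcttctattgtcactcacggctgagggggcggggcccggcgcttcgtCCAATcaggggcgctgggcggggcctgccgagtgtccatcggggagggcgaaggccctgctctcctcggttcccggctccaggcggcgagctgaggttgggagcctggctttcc
ZNF625: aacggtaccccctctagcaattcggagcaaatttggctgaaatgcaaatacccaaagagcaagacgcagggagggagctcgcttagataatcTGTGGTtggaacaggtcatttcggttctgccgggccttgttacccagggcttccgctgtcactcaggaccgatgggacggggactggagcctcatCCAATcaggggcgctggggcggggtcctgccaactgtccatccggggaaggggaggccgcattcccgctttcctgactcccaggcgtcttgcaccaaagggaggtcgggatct
ZNF442: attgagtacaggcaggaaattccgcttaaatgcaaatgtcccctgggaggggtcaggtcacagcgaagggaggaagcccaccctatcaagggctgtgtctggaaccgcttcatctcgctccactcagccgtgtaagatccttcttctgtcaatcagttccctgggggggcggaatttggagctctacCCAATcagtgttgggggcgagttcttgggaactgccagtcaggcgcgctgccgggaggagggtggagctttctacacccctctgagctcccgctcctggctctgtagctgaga
ZNF490: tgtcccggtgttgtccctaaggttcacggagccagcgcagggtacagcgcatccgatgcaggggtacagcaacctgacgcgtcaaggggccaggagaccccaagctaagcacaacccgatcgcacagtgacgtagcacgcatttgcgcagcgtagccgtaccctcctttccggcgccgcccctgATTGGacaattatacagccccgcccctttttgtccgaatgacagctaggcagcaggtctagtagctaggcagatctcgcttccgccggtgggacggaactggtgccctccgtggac

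Each of the 4 promoters held CCAAT once, counted on both strands, where 34.6% of 34796 promoters of the same length held it. Its first base lay 64 bases before the start in ZNF433, 63 in ZNF625, 63 in ZNF442 and 66 in ZNF490, where it is on the opposite strand. With a window of 60 to 70 bases before the start, drawn around these positions after they were seen, 3.4% of all promoters held it there. So did 4 of 34 promoters (11.8%) of other zinc finger genes of 19p13.2, of which 22 held CCAAT at any position. The RefSeq starts of ZNF433, ZNF442 and ZNF490 lie inside the spans that GENCODE gives these genes, that of ZNF490 the furthest. The distances given here therefore hold for the RefSeq starts only. The promoters of ZNF433 and ZNF625 aligned over 200 columns, of which 150 (75%) were identical. They share an unbroken run of 19 bases around the element, tccaatcaggggcgctggg, present in 5 of the 34796 promoters, namely those of ZNF433, ZNF625, its readthrough ZNF625-ZNF20, ZNF627 and ZNF669. The longest run shared by ZNF625 and ZNF442 was the 10 bases aaatgcaaat, found in 55 promoters, and no pair that included ZNF490 shared more than 8 bases in a row.

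TGTGGT was found once in ZNF625 and not in the other 3, where 13.1% of all promoters held it. The GC box GGGCGG was found in all 4 promoters, with 2 matches in ZNF433, 1 in ZNF625, 1 in ZNF442 and 2 in ZNF490, and in 44.9% of all promoters. Neither TATAAA, in 11.6% of all promoters, nor the AP-1 motif TGANTCA, in 7.73%, was found in any of the 4. Both strands were searched for each motif. The share of G and C was 61.3% in ZNF433, 59.0% in ZNF625, 57.7% in ZNF442 and 61.3% in ZNF490, against a median of 58.7% over all promoters. These are matches of letters, and no binding was measured.

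On the deposited CPM scale all 5 genes were lower under the RUNX1-IT1 ASO, by 2.07-fold to 3.16-fold between group means. With libraries rescaled to equal totals of the listed entries, 4 of the 5 changes were positive, ZNF763 by only 0.0015, and none was called. Of all 489 tested genes, 118 were then called lower and 43 higher, so most listed genes also lost their call. Since nearly all listed genes fell, this rescaling takes away their common fall by construction. It therefore gives changes relative to the other listed entries and cannot decide the direction. That rescaling moved the median change of all tested genes to -0.06, against -1.11 as deposited, and the 5 changes then ran from -0.0861 for ZNF442 to 0.31 for ZNF490 on the log2 scale. In limma on log2(CPM + 1), with Benjamini-Hochberg adjustment over the 489 tested genes, 5 of 5 were called lower at an adjusted p under 0.05, where 97.5% of all tested genes were called lower and 2.04% higher. Each RUNX1-IT1 ASO library lay below each control ASO library for 5 of 5 genes, which held for 97.1% of the tested genes. These shares are those of the tables as a whole. In RNA from bulk cells, fewer expressing cells and less RNA per cell cannot be told apart.

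ZNF625, the gene with the highest CPM of the 5, stood at 4.01, 1.67 and 2.93 CPM in replicates 1, 2 and 3 of the RUNX1-IT1 ASO, against 6.83, 6.60 and 6.97 CPM in control ASO replicates 1, 2 and 3. The control libraries lay close together, while RUNX1-IT1 ASO replicate 1 held more than any other library of its group and replicate 2 the least, without overlap between the groups. The means were 2.87 ± 1.17 CPM under the RUNX1-IT1 ASO and 6.80 ± 0.188 CPM under the control ASO (SD, n = 3 each), 2.37-fold lower, and the change on the log2(CPM + 1) scale was -1.06 ± 0.18 (SE, limma, adjusted p = 9.47e-05).

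ZNF490, which has the longest span of the 5 genes, was at 2.83, 2.53 and 1.29 CPM in the RUNX1-IT1 ASO replicates, against 4.63, 3.76 and 5.37 CPM in the control ASO replicates. Here RUNX1-IT1 ASO replicate 3 was the low library, and the gap between the groups was 0.930 CPM. The means were 2.22 ± 0.818 CPM under the RUNX1-IT1 ASO and 4.59 ± 0.805 CPM under the control ASO (SD, n = 3 each), the smallest fold of the 5 at 2.07-fold lower, with a log2 change of -0.82 ± 0.19 (SE, limma, adjusted p = 0.00077).

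ZNF433 had 1.98, 1.77 and 1.64 CPM in the RUNX1-IT1 ASO replicates, against 4.04, 4.46 and 3.63 CPM in control ASO replicates 1, 2 and 3. Both groups were tight, and the lowest control library was well above the highest RUNX1-IT1 ASO library. It fell 2.25-fold, to 1.80 ± 0.171 CPM under the RUNX1-IT1 ASO, against 4.04 ± 0.415 CPM under the control ASO (SD, n = 3 each), a log2 change of -0.85 ± 0.12 (SE, limma, adjusted p = 2.13e-05).

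ZNF763, the only one of the 5 on the plus strand, was at 0.802, 0.645 and 1.17 CPM in the RUNX1-IT1 ASO replicates, against 2.34, 2.32 and 2.59 CPM in the control ASO replicates. In this gene RUNX1-IT1 ASO replicate 3 was the highest of its group, the opposite of ZNF490. The means of 0.873 ± 0.271 CPM under the RUNX1-IT1 ASO and 2.42 ± 0.152 CPM under the control ASO (SD, n = 3 each) differed 2.77-fold, with a log2 change of -0.88 ± 0.14 (SE, limma, adjusted p = 3.66e-05).

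ZNF442, the lowest of the 5, had 0.642, 0.484 and 0.410 CPM in the RUNX1-IT1 ASO replicates, which is 12, 9 and 7 reads by the step size, against 1.59, 1.85 and 1.41 CPM in the control ASO replicates, or 32, 32 and 30 reads. The groups did not overlap, but so few reads leave a wide counting error on the lower values. It was 3.16-fold lower, at 0.512 ± 0.119 CPM under the RUNX1-IT1 ASO and 1.62 ± 0.221 CPM under the control ASO (SD, n = 3 each). On the log2(CPM + 1) scale its change of -0.79 ± 0.13 (SE, limma, adjusted p = 4.46e-05) was the smallest of the 5, since that scale shrinks changes of low genes. With a pseudocount of 0.1 in place of 1, ZNF442 stood at -1.50 and ZNF763 at -1.41, the 2 largest changes of the 5.

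**Figure D2:**
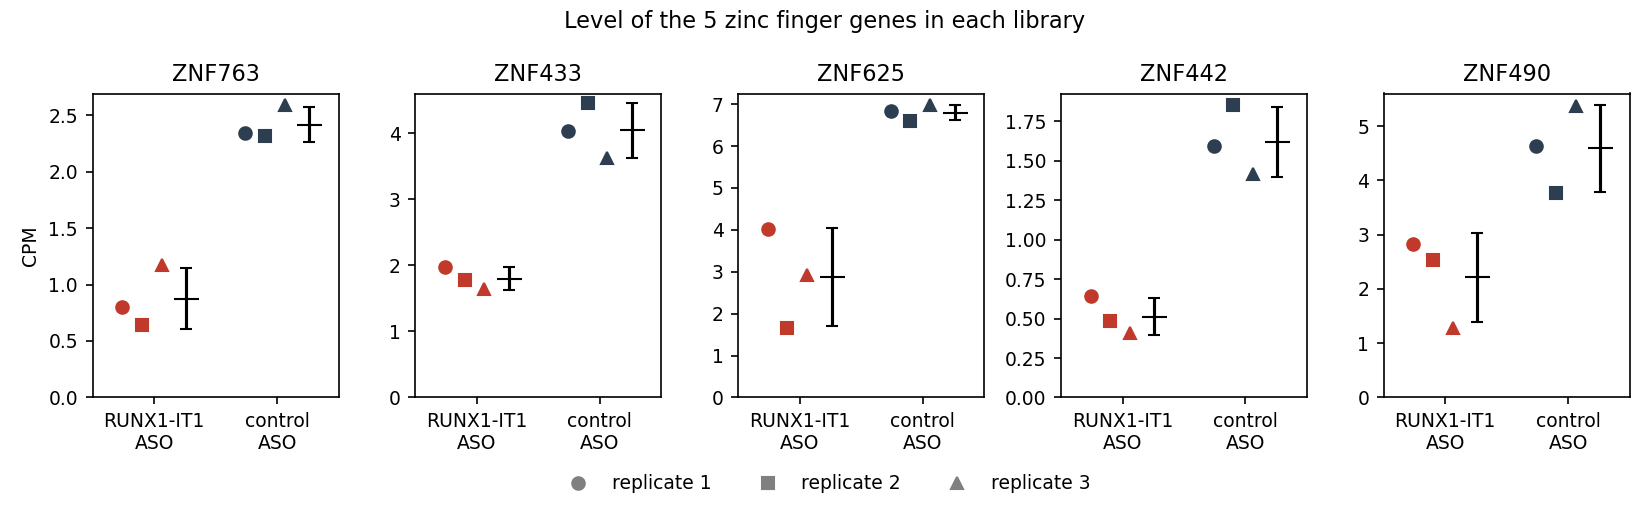
CPM of each gene in each library (points, shaped by replicate number; red, RUNX1-IT1 ASO; dark blue, control ASO), with the mean and SD of the 3 libraries of a group beside them; the panels have different vertical scales. For each of the 5 genes the 3 RUNX1-IT1 ASO points lie below the 3 control ASO points. In absolute CPM the gap is narrowest in ZNF442, 0.772 CPM, which is also the gene with the lowest level. The CPM are as deposited. Rescaling libraries to equal listed totals takes away the common fall of the listed entries, and 4 of the 5 changes are then positive, none of them called. Of all 489 tested genes, 118 are then called lower and 43 higher.

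Summed over the 5 genes, the RUNX1-IT1 ASO libraries held 10.3, 7.10 and 7.44 CPM and the control ASO libraries 19.4, 18.99 and 20.0 CPM in replicates 1, 2 and 3. RUNX1-IT1 ASO replicate 1 was the highest of its group for ZNF625, ZNF490, ZNF433 and ZNF442, though its total over all entries of the tables, 3628 CPM, was the lowest of the group, against 3812 and 3894 CPM in replicates 2 and 3. Without it, the log2 changes of the 5 genes ran from -1.27 for ZNF625 to -0.85 for ZNF763, all still called (limma, largest adjusted p = 0.000766, for ZNF490).

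Among the tested genes, the falls of the 5 were on the smaller side. Their median change was -0.85 on the log2(CPM + 1) scale, against -1.11 over all 489 tested genes, whose quartiles were -1.43 and -0.88. Counted from the largest fall, ZNF625 ranked 276, ZNF763 368, ZNF433 380, ZNF490 397 and ZNF442 405 of 489. By fold between group means, which needs no pseudocount, the median of the 5 was 2.37-fold lower, against 2.97-fold over all tested genes. On that measure ZNF442 ranked 209, ZNF763 279, ZNF625 355, ZNF433 397 and ZNF490 456. The 269 other genes with a control mean between those of ZNF442 and ZNF625 had a median change of -1.004 and a median fold of 3.24. The order within the 5 thus differed between the scales. Their median was the smaller fall on both, and ZNF442 alone had a larger fold than the median of all tested genes.

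**Figure D3:**
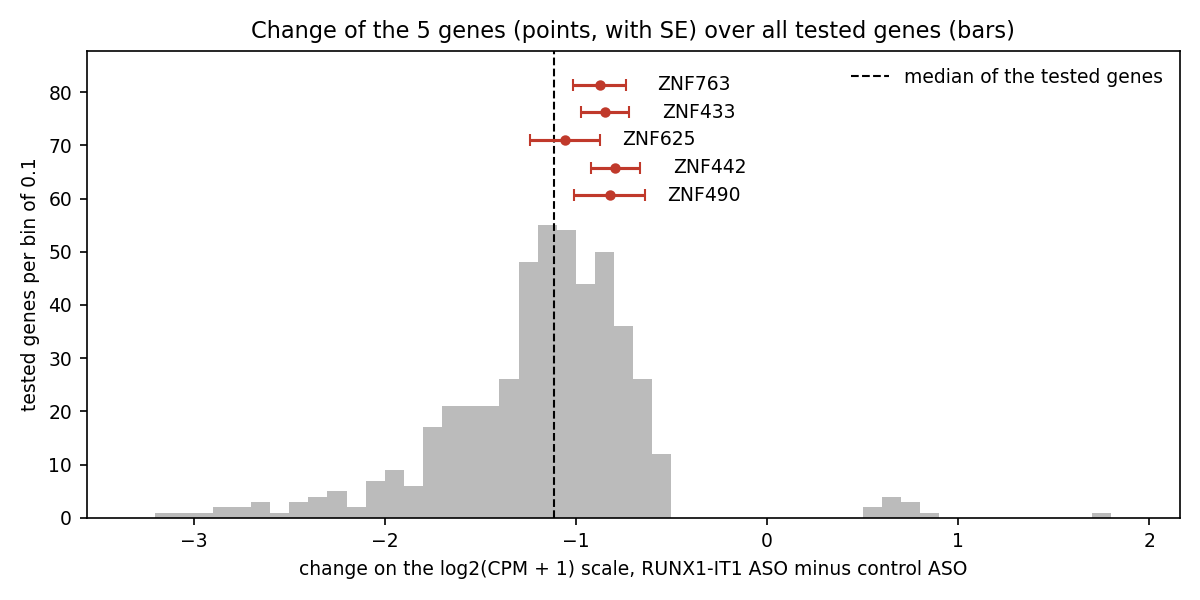
Change on the log2(CPM + 1) scale, RUNX1-IT1 ASO minus control ASO, of each of the 5 genes (red points with limma standard errors; their height only separates them) over a histogram of all 489 tested genes in bins of 0.1. The 5 points lie between -1.06 and -0.79, to the right of the dashed median of -1.11. Values are on the deposited scale. Rescaling to equal listed totals takes away the common fall of the listed entries, and 4 of the 5 changes are then positive, none of them called. Of all 489 tested genes, 118 are then called lower and 43 higher.

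The 5 genes were also compared with each other, by the difference of their log2(CPM + 1) values in each library. In 10 pairs, the differences of change ran from -0.18 between ZNF625 and ZNF763 to 0.27 between ZNF442 and ZNF625. An exact two-sided permutation test of 3 against 3 libraries cannot go below p = 0.1, which 1 pair reached, ZNF433 against ZNF442, with a difference of -0.06 and an adjusted p = 1.0 over the 10 pairs. For that pair the difference between the genes was steady within a group, with an SD of 0.0256 in RUNX1-IT1 ASO libraries and 0.0113 in control ASO libraries (n = 3 each). The SD of the difference between ZNF490 and ZNF625 was 0.602 under the RUNX1-IT1 ASO and 0.176 under the control ASO. Since this test could not pass 0.05 for any pair, it does not show whether the changes of the 5 genes differed or were alike.

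How far the replicates spread differed between the genes. In the RUNX1-IT1 ASO group, the SD of ZNF625 was 1.17 CPM where read counting alone gives 0.398 CPM, 2.95 times as much, and that of ZNF490 was 0.818 CPM where counting gives 0.348 CPM, 2.35 times as much. In reads, ZNF625 had 75, 31 and 50 and ZNF490 had 53, 47 and 22 in RUNX1-IT1 ASO replicates 1, 2 and 3. The library that was low thus differed, replicate 2 for ZNF625 and replicate 3 for ZNF490. ZNF763, ZNF442 and ZNF433 had SDs of 1.23, 0.707 and 0.542 times the counting error under the RUNX1-IT1 ASO. In control ASO libraries the SD of ZNF490 was 1.66 times the counting error, and the other 4 genes stayed below it, down to 0.317 times for ZNF625. Over the 5 genes the median coefficient of variation was 31.0% under the RUNX1-IT1 ASO and 10.3% under the control ASO. Over the 269 other tested genes of the same range of level it was 24.2% under the RUNX1-IT1 ASO and 12.9% under the control ASO.

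**Figure D4:**
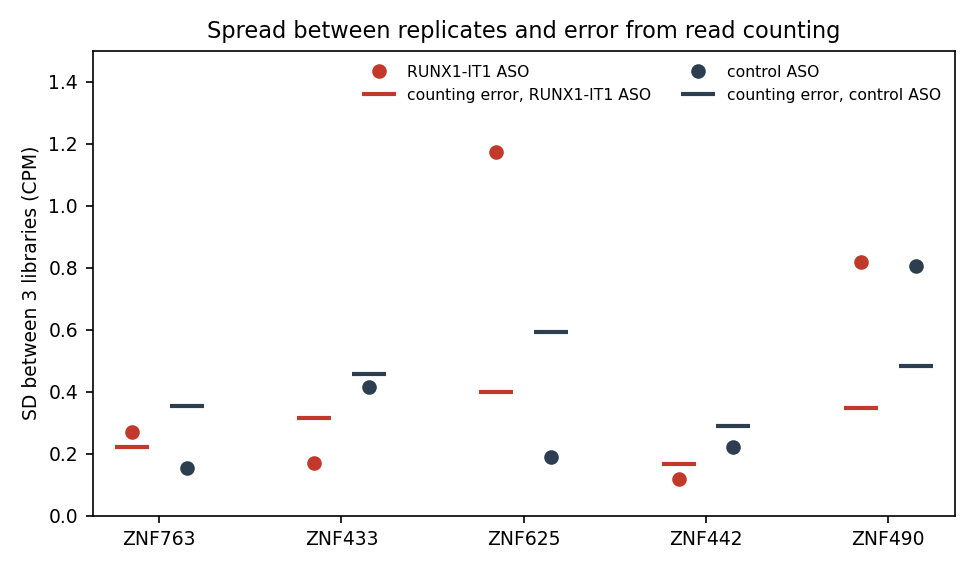
SD of CPM between the 3 libraries of a group for each gene (points; red, RUNX1-IT1 ASO; dark blue, control ASO), with the SD that read counting alone would give (horizontal bars of the same colour). ZNF625 (1.17 against 0.398 CPM) and ZNF490 (0.818 against 0.348 CPM) under the RUNX1-IT1 ASO lie furthest above their bars. In control ASO libraries the SD of ZNF490 is 1.66 times its bar. Each SD rests on 3 libraries, and named genes as a whole also spread by more than sampling noise between replicates.

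Levels of different genes were compared per kb of annotated exon, counting each exonic base of a gene once. ZNF625 was highest, at 1.30 ± 0.532 CPM per kb under the RUNX1-IT1 ASO and 3.09 ± 0.0852 CPM per kb under the control ASO (SD, n = 3 each). Next came ZNF433, at 0.584 ± 0.0555 CPM per kb under the RUNX1-IT1 ASO and 1.31 ± 0.135 CPM per kb under the control ASO, and ZNF490, at 0.450 ± 0.166 and 0.933 ± 0.164 CPM per kb in the same order of groups. ZNF763 followed, at 0.307 ± 0.0951 CPM per kb under the RUNX1-IT1 ASO and 0.849 ± 0.0536 CPM per kb under the control ASO. ZNF442, with 6569 exonic bases the longest transcript model, was lowest, at 0.0779 ± 0.0180 CPM per kb under the RUNX1-IT1 ASO and 0.247 ± 0.0336 CPM per kb under the control ASO. The order of the means was the same in both groups. Libraries of neighbours in that order overlapped between ZNF433 and ZNF490 and between ZNF490 and ZNF763 under the RUNX1-IT1 ASO, and between ZNF490 and ZNF763 under the control ASO. The transcripts that the authors counted are not given in the sources used here, so these lengths may not be theirs.

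Reads of 4 of the 5 genes could also belong to overlapping genes. In the annotation, ZNF625 overlaps the readthrough gene ZNF625-ZNF20 on the same strand, ZNF490 overlaps AC010422.6, ZNF763 overlaps AC008770.2 and ZNF433 overlaps AC008770.1, in all 4 cases with shared exons. ZNF625 also shares exonic positions with the pseudogene AC022415.1 on the same strand. ZNF433 also shares exonic positions with ZNF433-AS1 on the opposite strand, and since the strand setting of the counting is not given, reads from those positions cannot be told apart. ZNF791 lies on the opposite strand within the span of ZNF490, but their exons do not overlap. Of all distinct 50-base stretches of a gene's transcripts, 81.2% in ZNF625, 60.4% in ZNF490, 47.3% in ZNF763 and 13.1% in ZNF433 also occur in transcripts of an overlapping gene, and 0% in ZNF442. Both strands were counted. For ZNF625 the share was 63.7% with ZNF625-ZNF20 and 18.7% with AC022415.1, and for ZNF433 it was 11.5% with ZNF433-AS1. None of these overlapping genes is in the tables used here.

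The share of such stretches found in genes elsewhere was 5.12% in ZNF763, 4.54% in ZNF490, 2.69% in ZNF442, 0.953% in ZNF625 and 0.381% in ZNF433, below the share with overlapping genes in each but ZNF442. The largest such share of ZNF763 was with ZNF69, at 1.85%, and of ZNF442 with ZNF443, at 1.19%, both members of the same gene cluster. Between the 5 genes themselves, ZNF433 and ZNF625 alone shared any 50-base stretch, 0.147% of those of ZNF433 and 0.227% of those of ZNF625. The read length is not given in the sources used here.

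Another 3 genes of the tables lie within 1 Mb of the outermost of the 5. JUNB, which encodes a JUN family protein of the AP-1 complex, had 36.4, 44.7 and 45.7 CPM in the RUNX1-IT1 ASO replicates, against 126, 111 and 134 CPM in the control ASO replicates, 2.94-fold lower (log2 change -1.53 ± 0.10 SE, limma, adjusted p = 1.45e-08). ELAVL3, a neuronal RNA-binding protein gene, and CACNA1A, a calcium channel subunit gene, were too low to be tested. ELAVL3 averaged 0.203 ± 0.0384 CPM under the RUNX1-IT1 ASO and 0.863 ± 0.353 CPM under the control ASO, and CACNA1A 0.109 ± 0.0510 CPM under the RUNX1-IT1 ASO and 1.101 ± 0.113 CPM under the control ASO (SD, n = 3 each). The 8 listed genes of this window, among 91 protein-coding genes annotated there, were all lower under the RUNX1-IT1 ASO, as nearly all listed genes were.

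Outside 19p13.2 the tables hold 16 genes whose symbol starts with ZNF, ZFP, ZSCAN, ZKSCAN or ZBTB. The mean of each of the 16 was lower in RUNX1-IT1 ASO libraries. Of the 16, 15 were tested, and all 15 were called lower on the deposited scale, as were 97.5% of all tested genes. After the rescaling 2 of the 15 were called lower, against 118 of all 489 tested genes. The median change of the 15 was -0.95, against -0.85 for the 5 genes, and their median fold was 2.24, against 2.37 for the 5. On the log2(CPM + 1) scale the largest changes among the 15 were those of ZNF280A, ZFP3, ZNF165, ZNF222 and ZNF773, an order that differs from that by fold. ZNF280A averaged 2.38 ± 0.412 CPM under the RUNX1-IT1 ASO and 10.7 ± 0.465 CPM under the control ASO, 4.47-fold lower, and ZFP3 0.310 ± 0.0709 CPM and 2.10 ± 0.513 CPM in the same groups, 6.78-fold lower (SD, n = 3 each). ZNF165 was 3.45-fold, ZNF222 3.00-fold and ZNF773 2.40-fold lower. The changes of the 5 genes of 19p13.2, from -1.06 to -0.79, lie inside the range of the 15, from -1.79 to -0.58. The 16 also include ZFP36, whose product binds RNA through a different type of zinc finger. Zinc finger genes with other symbols were not counted, such as ZFHX2 (log2 change -1.24, called lower) and ZIC4 (0.608, called higher). None of the 18 KRAB cofactor genes looked up, TRIM28 and SETDB1 among them, is in the tables used here.

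The genes most alike to the 5 in pattern were AHR, a ligand-activated transcription factor, MUSK, a receptor kinase best known from muscle, and the non-coding RNA LINC00346. Likeness was measured as the root mean square difference, over the 6 libraries, between a gene's log2(CPM + 1) values centred on their own mean and the mean of the centred values of the 5 genes. It was 0.0563 for AHR, 0.0586 for MUSK and 0.0619 for LINC00346, against a median of 0.231 over all tested genes. The measure includes the size of the change between groups, so a gene with a similar fall scores as alike. That change was -0.99 for AHR, -0.81 for MUSK and -0.89 for LINC00346, inside the range of the 5 genes, -1.06 to -0.79. ZNF433 (0.0935) and ZNF442 (0.0977) were closer to the mean of the 5 than ZNF763 (0.155), ZNF625 (0.214) and ZNF490 (0.232). ZNF490 was thus no closer to it than the median tested gene, though that mean includes ZNF490. The measure also takes in the spread between replicates, so it does not show whether the 5 genes share 1 pattern. AHR stood at 29.3, 24.3 and 25.5 CPM in the RUNX1-IT1 ASO replicates, against 53.2, 52.2 and 53.8 CPM in the control ASO replicates, and like the sum of the 5 genes it was highest in replicate 1 within the RUNX1-IT1 ASO group.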

How the data were processed

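RNA of ES2 cells was sequenced in 6 libraries, 3 per group, from mRNA-focused libraries per the labels. The values deposited by the authors are CPM, read from their even steps. GRCh38, FastQC 0.11.9 and fastp 0.22.0 are named per the submitters' processing notes. The aligner, counter, annotation, strand setting and choice of entries are all not given in the sources used here. Tests left out 342 entries that carry no symbol.

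Named genes averaging 1 CPM or more over the 6 libraries entered a limma 3.58.1 model (R 4.3.3) of log2(CPM + 1) on group alone, with its prior variance following the mean, and p-values were Benjamini-Hochberg adjusted over the 489 genes. Fold changes are RUNX1-IT1 ASO against control ASO. The fit was tested on simulated data. Steps were found from values up to 320 reads, all of which lay within 0.1 step of a whole number. Since the control ASO libraries had smallest values of 2, 5 and 2 steps, reads were not taken as fully recovered and no count test was run. A floor of 3 reads is 0.141 to 0.176 CPM, and read numbers and floors cover counting error only. Replicates of a group differed by more than sampling noise, with chi-square per degree of freedom of 1.72 to 3.02. Promoters came from RefSeq on GRCh38.p14 (exact matches, and local alignment in Biopython 1.88 with match 2, mismatch -3, gap -5 and extension -2), transcripts from GENCODE release 29. Permutation tests used SciPy 1.17.1.

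Genes named are the 5, every listed gene within 1 Mb of them, the 5 zinc finger genes elsewhere with the largest changes, the 3 genes most alike in pattern, and looked-up cofactors and markers. ZFP36, ZFHX2 and ZIC4 were named after their values were seen, as were the overlapping and sequence-sharing genes. The members, lists and tests were chosen with earlier results of these data known.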

Additional observations from a re-analysis of the deposited data

How the results depend on the processing

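Of 68 values of the 5 genes under 14 alternatives, the 63 outside rescaling kept their direction and call (limma, largest adjusted p = 0.00508). Rescaling each library to the same total over the listed entries, which centres genes that nearly all fell (median of all tested genes -0.06), turned ZNF433 to 0.25, ZNF490 to 0.31, ZNF625 to 0.15 and ZNF763 to 0.0015 and left ZNF442 at -0.0861, none of them called (limma, adjusted p from 0.199 to 0.992). It moved the members called lower to 0, all named genes called to 118 lower and 43 higher, and zinc finger genes outside 19p13.2 called lower to 2 of 15. With a minimum mean of 2 CPM, ZNF442 and ZNF763 were not tested, the other 3 stayed called, and calls over all genes were 298 lower and 1 higher of 301. With no filter they were 750 lower and 19 higher of 771, and ZNF442 and ZNF763 stayed called lower (limma, adjusted p = 3.81e-05 and 1.78e-05).

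Leaving out each library in turn gave -0.91 to -0.79 for ZNF433, -0.85 to -0.73 for ZNF442, -0.97 to -0.59 for ZNF490, -1.27 to -0.81 for ZNF625 and -0.99 to -0.79 for ZNF763. Same-numbered libraries did not deviate together (r from -0.24 to -0.02 over tested genes), so the numbers were not taken as pairs. With a replicate block the changes were unchanged in size and all 5 genes stayed called, ZNF490 with adjusted p = 0.00134 (limma). No other gene of the 19p13.2 list was in the tables, so its count has no value, and the count test was not run. At 7 to 12 reads for ZNF442 under the RUNX1-IT1 ASO, depth limits its fold.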
